A study of Mus musculus with 10 samples.

Results

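The genes described here are the Toll-like receptors Tlr1, Tlr2, Tlr4, Tlr7, Tlr8, Tlr9 and Tlr13, the co-receptors Cd14 and Ly96, and the adaptor Myd88. They were taken by Ensembl identifier from the raw count table and make up 10 of its 48526 genes, and all 10 passed the low-count filter that left 13334 genes. The series set mice under acute mental stress beside non-stressed mice and asked what the stress does to the endothelium of the aorta. The stressed group holds 5 libraries from mice that were stressed on 3 consecutive days for 3 h each, and the non-stressed group holds 5 libraries from mice without this exposure. The labels give the strain of all mice in both groups as ApoE, name no other allele, and give no age. Per the labels, the cells were sorted by flow cytometry as aortic endothelial cells, and nothing says whether a library came from 1 animal or from a pool. P-values therefore measure the spread between these libraries.

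Toll-like receptors are membrane proteins that bind molecules of microbes and of damaged cells through an outer horseshoe of leucine-rich repeats and signal through an inner TIR domain. Receptors at the cell surface mostly bind lipids and proteins of microbes: TLR2 pairs with TLR1 or TLR6 on bacterial lipopeptides, and TLR4 binds lipopolysaccharide together with MD-2, the product of Ly96, after CD14 has handed the lipid over. Receptors in endosomes bind nucleic acids: TLR7 and TLR8 bind single-stranded RNA, TLR9 binds DNA rich in unmethylated CpG, and TLR13, which humans lack, binds bacterial ribosomal RNA in the mouse. All members of the family except TLR3 can signal through the adaptor MyD88, which leads to NF-kappaB and AP-1. In the artery wall these receptors are known from macrophages and other immune cells, and TLR2 and TLR4 also from endothelium.

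Most transcripts that define the labelled cell type were absent or at low levels. Of 10 endothelial markers, Tek, Emcn and Cldn5 had 0 reads in all 10 libraries, and Cdh5, Nos3 and Erg stayed below 1 CPM (reads of a gene per 1000000 reads of the library) in each. Pecam1, which platelets and leukocytes also express, was present in every library at 12.2 to 37.5 CPM in stressed and 18.02 to 46.8 CPM in non-stressed libraries, and Vwf, which platelets and their precursors also express, at 16.7 to 44.8 CPM in stressed and 16.0 to 42.3 CPM in non-stressed libraries, while Kdr and Tie1 had 315 and 135 reads over all libraries. The summed level of the endothelial list was 32.7 to 79.9 CPM in stressed and 37.2 to 88.4 CPM in non-stressed libraries, while that of 10 monocyte and macrophage markers was 29677 to 36810 CPM in stressed and 25082 to 37117 CPM in non-stressed libraries. The receptors below are therefore described for sorted cells so labelled, with myeloid transcripts at high levels in both groups, and in such bulk samples fewer cells of a type and less RNA per cell cannot be told apart. Total counts ran from 18020220 to 38237346 per library, and a count of 0 allows a level of 0.0785 to 0.166 CPM, taken as 3 counts and covering counting error only. Stressed replicate 1 and non-stressed replicate 1 stood apart from the remaining libraries in a principal component plot, and values without them are given for Tlr4, Tlr9, Cd14 and the gene lists whose balance of directions they move. Replicates 1 and 5 of each group carried Xist, the transcript of the inactive X chromosome, and replicates 2, 3 and 4 of each group carried more than 100 reads of Ddx3y, a Y-linked gene.

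Sequence bears on the counts of Tlr1, since Tlr1 and its neighbour Tlr6 lie side by side on chromosome 5 and share a near-identical stretch of coding sequence in which a short read cannot be assigned to either gene. The stretch spans 253 bases inside 1 coding exon of each gene on the minus strand (GRCm38), chr5:64925525-64925777 in Tlr1 and chr5:64953816-64954068 in Tlr6. It is printed 5′ to 3′ with the 2 mismatched bases in capitals, and the 229 bases between them are identical.
Tlr1: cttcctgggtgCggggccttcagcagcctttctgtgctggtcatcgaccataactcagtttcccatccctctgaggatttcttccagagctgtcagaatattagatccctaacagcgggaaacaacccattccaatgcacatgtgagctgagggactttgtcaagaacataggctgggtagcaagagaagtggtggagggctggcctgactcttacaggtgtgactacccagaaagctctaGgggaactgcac
Tlr6: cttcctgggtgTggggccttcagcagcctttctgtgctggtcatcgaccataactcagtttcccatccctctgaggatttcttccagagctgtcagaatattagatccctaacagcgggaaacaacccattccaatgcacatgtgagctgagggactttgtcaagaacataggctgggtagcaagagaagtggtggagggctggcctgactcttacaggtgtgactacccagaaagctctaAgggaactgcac

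Of all 75-base words in the longest transcript of Tlr1, 11.5% also occurred in Tlr6, and 9.44% of the words of Tlr6 occurred in Tlr1. The printed stretch holds the longest identical run and only part of these 340 shared words, and the others lie outside it. The level of each gene is uncertain by reads from all shared words. How the authors' counting treated reads that match more than 1 place is not given in the sources used here. Myd88 shared 6.29% of its words with Acaa1a, an enzyme gene of peroxisomes on the opposite strand whose exons overlap its own by 290 bases. Acaa1a had 32924 reads over all libraries against 64712 of Myd88, and the strand setting of the counting is not given either. The other 8 of the 10 genes shared no such word with another gene.

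Promoters are printed for 3 endosomal receptors and 1 surface receptor, since these genes stood at high levels in all libraries and Tlr9 showed the largest difference between the groups among the 7 receptors. Each runs from 250 bases before to 50 bases after the RefSeq start (GRCm38.p6), on the strand of the gene, and capitals mark matches on either strand to 3 motifs. These were GAGGAA, a core of the myeloid factor PU.1, TGACTCA, the site of AP-1, and AANNGAAA, a core of the interferon regulatory factors (IRF). Overlapping matches would run together in the capitals.
Tlr9, chr9:106222348-106222647, plus strand: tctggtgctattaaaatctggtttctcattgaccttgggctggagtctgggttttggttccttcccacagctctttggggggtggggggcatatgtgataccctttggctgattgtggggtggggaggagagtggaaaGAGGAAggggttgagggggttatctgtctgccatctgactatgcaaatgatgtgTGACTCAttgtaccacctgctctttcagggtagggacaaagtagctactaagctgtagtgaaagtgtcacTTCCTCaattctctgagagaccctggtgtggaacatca
Tlr13, chrX:106143025-106143324, plus strand: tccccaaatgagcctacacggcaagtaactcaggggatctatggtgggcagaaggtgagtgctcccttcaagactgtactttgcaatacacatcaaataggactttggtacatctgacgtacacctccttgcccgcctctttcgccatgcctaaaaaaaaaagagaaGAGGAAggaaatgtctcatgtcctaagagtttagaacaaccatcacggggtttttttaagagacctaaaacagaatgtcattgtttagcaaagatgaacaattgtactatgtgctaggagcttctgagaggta
Tlr8, chrX:167264280-167264579, minus strand: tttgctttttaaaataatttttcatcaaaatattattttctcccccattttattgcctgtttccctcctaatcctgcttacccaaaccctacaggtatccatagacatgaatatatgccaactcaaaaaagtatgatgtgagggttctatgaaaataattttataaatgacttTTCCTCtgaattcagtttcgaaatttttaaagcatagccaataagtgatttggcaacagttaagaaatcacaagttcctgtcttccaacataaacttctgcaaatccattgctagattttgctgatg
Tlr2, chr3:83841559-83841858, minus strand: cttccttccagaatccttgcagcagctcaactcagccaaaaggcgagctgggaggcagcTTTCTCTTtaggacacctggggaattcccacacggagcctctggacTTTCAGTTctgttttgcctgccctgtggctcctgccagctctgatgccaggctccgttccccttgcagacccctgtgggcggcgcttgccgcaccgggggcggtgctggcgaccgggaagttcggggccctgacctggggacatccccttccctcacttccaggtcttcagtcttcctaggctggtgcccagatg

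The Tlr9 promoter held 2 matches to the PU.1 core and 1 to the AP-1 site, those of Tlr13 and Tlr8 held 1 PU.1 core each, and that of Tlr2 held 2 IRF cores. Of all 32851 promoters of the same length, 28.3% held the PU.1 core, 5.20% the AP-1 site and 23.9% the IRF core. RefSeq promoters were matched by symbol for 6 of the 10 genes. A match describes letters in this window and is not a binding site.

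Tlr13 and Tlr7, both receptors for RNA in endosomes, were the most abundant Toll-like receptor transcripts in both groups. Levels of different genes are compared per length, as CPM per kilobase of exon. Over the 10 libraries Tlr13 stood at 78.3 to 121 CPM per kilobase with a median of 101, and Tlr7 at 74.3 to 105 with a median of 90.9. Tlr13 was above Tlr7 in 8 of 10 libraries and their ranges overlapped, so this pair is not ordered beyond its spread. Both stood above every other receptor in all libraries, and Tlr7 was 1.63 to 3.83 times as high as Tlr9, with a median ratio of 2.12.

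A middle set was made of Tlr9, Tlr2 and Tlr8, with medians of 46.5, 42.6 and 35.2 CPM per kilobase. Tlr9 was above Tlr2 in 5 of 10 libraries, and this pair swapped places when levels were divided by coding length. Tlr2 was above Tlr8 in all 10 libraries although their ranges, 35.5 to 53.3 and 28.8 to 40.8 CPM per kilobase, overlapped. Tlr1 followed at a median of 18.2 CPM per kilobase, below Tlr8 without overlap. Tlr2 was 1.37 to 3.11 times as high as Tlr1, its partner on triacylated lipopeptides.

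Tlr4 was the lowest of the 7 receptors, with a median of 6.21 CPM per kilobase and a range of 4.61 to 12.9. Tlr6, the partner of Tlr2 on diacylated lipopeptides, had a median of 10.1 CPM per kilobase and was above Tlr4 in 9 of 10 libraries. Tlr13 stood 8.84 to 22.1 times as high as Tlr4, and Tlr2 3.35 to 9.74 times. The remaining mouse receptors were lower still, with medians of 2.49 CPM per kilobase for Tlr5, the flagellin receptor, 1.80 for Tlr11, 1.02 for Tlr3, the receptor of double-stranded RNA, and 0.306 for Tlr12. Tlr12 had 0 reads in stressed replicate 4, which allows up to 0.0994 CPM there. Neighbours from Tlr5 down to Tlr12 had overlapping ranges.

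**Figure D1:**
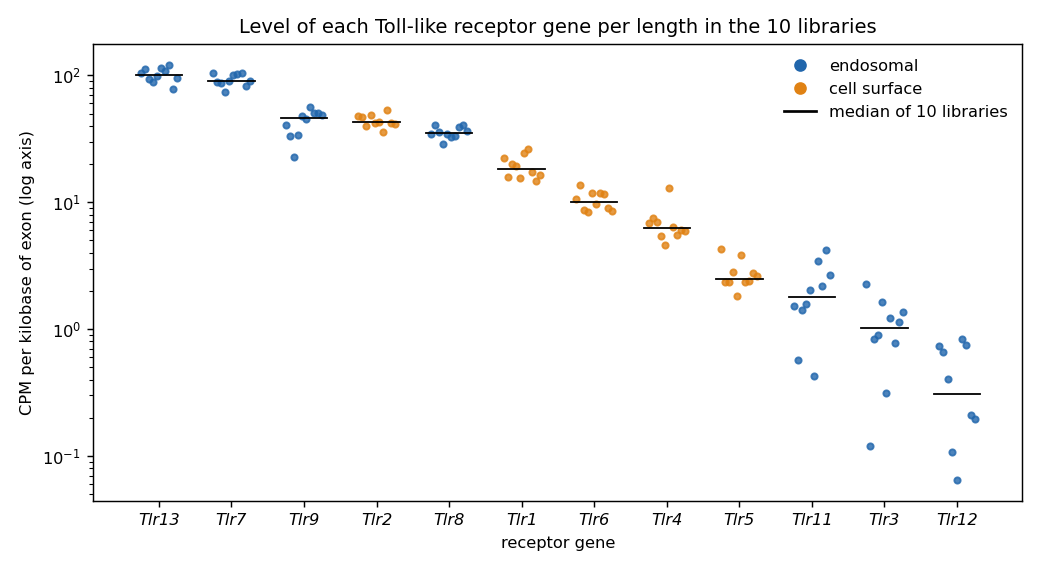
Level of 12 mouse Toll-like receptor genes in CPM per kilobase of exon (log axis), with 1 point per library and a line at the median of the 10 libraries; blue marks endosomal and orange cell-surface receptors. Tlr13 and Tlr7 lie above every other gene in all libraries, and Tlr12 in stressed replicate 4, at 0 reads, cannot be drawn.

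Between stressed and non-stressed libraries, none of the 10 genes passed the threshold. Cd14 was higher in the stressed libraries at an unadjusted p under 0.05, Tlr9 was lower, and the other 8 differed by less than 0.25 on the log2 scale. In edgeR's quasi-likelihood test across all genes 0 of the 10 were called at an adjusted p under 0.05, against 1 of 13334 genes (0.00750%). DESeq2 and limma-voom also called 0 of the 10. Over all genes DESeq2 called 13 higher and 5 lower, and limma-voom 2 higher and 0 lower. In edgeR at an unadjusted p under 0.05 there were 2 of the 10, against 738 of 13334 genes (5.53%). No member separated the groups without overlap in CPM, which 1.09% of all tested genes did. Fold changes were below 0 for 8 of the 10 genes, where 49.1% of all genes were below 0, and the median log2 fold change was -0.08 over the 10 and 0.0045 over all genes tested. The balance moved to 6 of 10 below 0 without non-stressed replicate 2 and without replicate 1 of both groups. Blood cell markers also leaned in direction. Of the erythroid list 7 of 7 markers were above 0, with sums of 1172 to 5528 CPM in stressed and 1333 to 2781 CPM in non-stressed libraries, as were 6 of 6 platelet markers. The T and NK cell list was below 0 for 6 of 8 markers, with sums of 7.70 to 52.4 CPM in stressed and 14.4 to 85.0 CPM in non-stressed libraries. None of these markers was called, and their part in the values below was not tested.

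**Figure D2:**
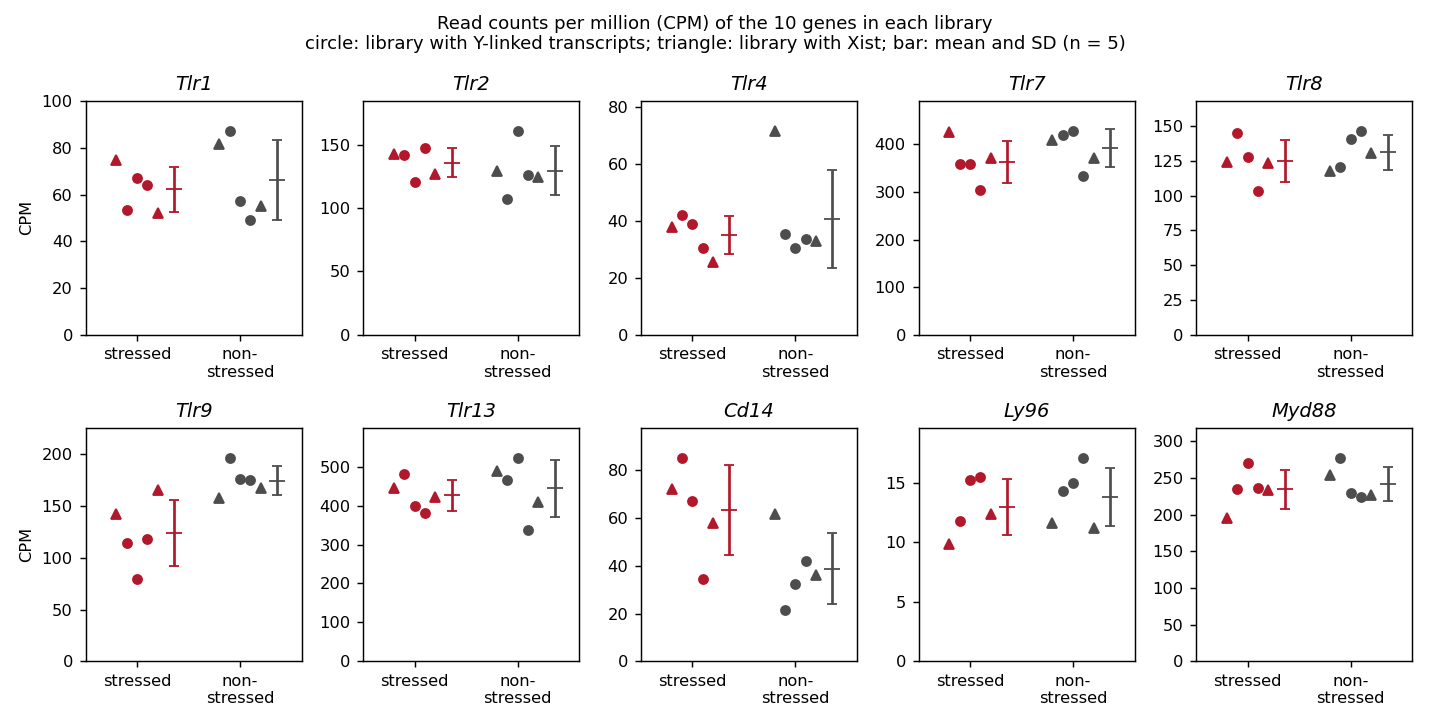
CPM of the 10 genes in each of the 5 stressed (red, left) and 5 non-stressed (grey, right) libraries, with the mean and SD of each group beside the points; triangles are libraries with Xist and circles those with Y-linked transcripts. The groups overlap for every gene; Tlr9 lies lower and Cd14 higher in most stressed libraries, and 1 non-stressed library stands apart for Tlr4 at 71.4 CPM.

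Among the surface receptors, Tlr2 was measured at 143, 142, 120.4, 147 and 127 CPM in stressed replicates 1 to 5 and at 129.7, 107, 161, 126 and 124 CPM in non-stressed replicates 1 to 5. The lowest and the highest value were both from non-stressed libraries, and the groups overlapped throughout. Tlr2 averaged 136 ± 11.5 CPM in stressed and 129.6 ± 19.5 CPM in non-stressed libraries (SD, n = 5 each). Its log2 fold change was 0.07 (SE 0.10, 95% interval -0.14 to 0.29, edgeR adjusted p = 0.971). The gene (ENSMUSG00000027995) lies on chromosome 3 from 83836272 to 83841767, minus strand.

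Tlr1 was measured at 74.7, 53.3, 67.0, 64.1 and 51.9 CPM in the stressed libraries and at 81.9, 87.1, 57.4, 48.9 and 55.1 CPM in the non-stressed libraries. Non-stressed replicates 1 and 2 were the highest, and the remaining values of both groups lay between 48.9 and 74.7 CPM. Tlr1 had a log2 fold change of -0.08 (SE 0.16, 95% interval -0.42 to 0.26, edgeR adjusted p = 0.987). Tlr6, which shares sequence with Tlr1, averaged 39.5 ± 8.28 CPM in stressed and 37.8 ± 5.81 CPM in non-stressed libraries, with a log2 fold change of 0.07 (SE 0.15, edgeR adjusted p = 0.987).

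Tlr4, on chromosome 4 from 66827584 to 66930284, plus strand, was measured at 37.9, 42.1, 38.9, 30.3 and 25.6 CPM in the stressed libraries and at 71.4, 35.5, 30.4, 33.6 and 32.7 CPM in the non-stressed libraries. Non-stressed replicate 1 was the highest, and the remaining libraries of both groups lay between 25.6 and 42.1 CPM. Tlr4 had a log2 fold change of -0.22 (SE 0.22, 95% interval -0.68 to 0.25, edgeR adjusted p = 0.961), and without non-stressed replicate 1 it was 0.07. The direction of Tlr4 thus depended on 1 library.

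The endosomal receptors Tlr7 and Tlr8 are neighbours on the X chromosome, on the minus strand, Tlr7 from 167304929 to 167330558 and Tlr8 from 167242696 to 167264329. Tlr7 was measured at 425, 359, 358, 303 and 371 CPM in the stressed libraries and at 409, 421, 428, 334 and 371 CPM in the non-stressed libraries. In each group replicate 4 was the lowest, and the groups overlapped. Tlr7 had a log2 fold change of -0.11 (SE 0.09, 95% interval -0.30 to 0.09, edgeR adjusted p = 0.950).

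Tlr8, whose product responds less to RNA in the mouse than in humans, was measured at 124, 145, 128, 103 and 123 CPM in the stressed libraries and at 117, 120.2, 141, 146 and 131 CPM in the non-stressed libraries. The groups overlapped, with stressed replicate 4 lowest. The log2 fold change of Tlr8 was -0.07 (SE 0.10, 95% interval -0.27 to 0.14, edgeR adjusted p = 0.973). Tlr7 and Tlr8 varied little, with a coefficient of variation over the 10 libraries of 11.1% for Tlr7 and 10.4% for Tlr8, against 33.6% for Tlr4 and 40.3% for Cd14. Per kilobase, Tlr7 was 2.01 to 3.07 times as high as its neighbour Tlr8.

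Tlr13, also on the X chromosome, from 106143204 to 106160493 on the plus strand, was measured at 446, 481, 399, 380.4 and 423 CPM in the stressed libraries and at 489, 465, 522, 337 and 409 CPM in the non-stressed libraries. The lowest and the highest library were both non-stressed. Tlr13 averaged 426 ± 39.4 CPM in stressed and 444 ± 72.8 CPM in non-stressed libraries (SD, n = 5 each). Its log2 fold change was -0.06 (SE 0.10, 95% interval -0.28 to 0.17, edgeR adjusted p = 0.987).

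Tlr9, the receptor of CpG-rich DNA, had the largest difference relative to its error among the 7 receptors. It was measured at 142, 115, 79.7, 118.5 and 166 CPM in the stressed libraries and at 158, 196, 176, 175 and 168 CPM in the non-stressed libraries. Of the 5 stressed libraries, 4 lay below every non-stressed library, and stressed replicate 5 lay among them. Tlr9 averaged 124 ± 32.2 CPM in stressed and 175 ± 14.1 CPM in non-stressed libraries (SD, n = 5 each), a fitted fold of 0.713.

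The log2 fold change of Tlr9 was -0.49 (SE 0.15, 95% interval -0.80 to -0.17). Its edgeR p was 0.00478 before adjustment, rank 79 of 13334 genes, and 0.788 after it. Over 19 alternatives the log2 fold change stayed below 0, from -0.64 to -0.37, with adjusted p from 0.242 to 0.999, and it was -0.58 without replicate 1 of each group. The gene (ENSMUSG00000045322) lies on chromosome 9 from 106222598 to 106226883, plus strand, and its promoter is the first printed above.

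Tlr9 is known in mice from plasmacytoid and conventional dendritic cells, B cells and macrophages, and the markers of these cells are given beside it. Of the monocyte and macrophage list, whose sums are given above, 4 of 10 markers were above 0 in log2 fold change and 6 below. The median of that list was -0.07. The summed level of 8 conventional dendritic cell markers was 232, 254, 190, 275 and 253 CPM in stressed replicates 1 to 5 and 251, 397, 307, 301 and 295 CPM in non-stressed replicates 1 to 5, with 6 of 8 markers below 0 in log2 fold change. The lowest and the highest library, stressed replicate 3 and non-stressed replicate 2, were the same for this sum and for Tlr9. Non-stressed replicate 1 had a sum below those of stressed replicates 2, 4 and 5. Its Tlr9 level was above that of stressed replicates 2 and 4 and below that of stressed replicate 5. Markers of the list differed in direction. By median, Flt3 (53.6 CPM in stressed, 37.3 in non-stressed libraries), Zbtb46 (2.82 and 2.27) and Xcr1 (1.33 and 1.20) were higher in the stressed libraries. Dpp4 (77.0 and 118 CPM), Cd209a (52.1 and 78.6), Clec10a, Clec9a and Itgae were lower. Cd74, the invariant chain of class II molecules, is outside the list and was chosen after its values were seen. It was at 647 to 1124 CPM in stressed and 999 to 3715 CPM in non-stressed libraries.

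The B cell list was lower for 8 of 8 markers, with sums of 115 to 284 CPM in stressed and 94.98 to 459 CPM in non-stressed libraries. The plasmacytoid dendritic cell list was lower for 5 of the 6 markers that could be tested, with sums of 261 to 357 CPM in stressed and 297 to 356 CPM in non-stressed libraries, and Siglech, which defines these cells, was at 0.388 to 1.99 CPM in stressed and 0.243 to 3.58 CPM in non-stressed libraries. No marker of these lists passed the threshold, and their part in the Tlr9 difference was not tested.

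The 4 endosomal receptors all had log2 fold changes below 0, with a median of -0.09, and without non-stressed replicate 3 there were 3 of 4. Of the 3 surface receptors 1 was above 0 and 2 were below, with a median of -0.08, and 2 were above 0 without non-stressed replicate 1 (median 0.06), without non-stressed replicate 2 (0.0056) and without replicate 1 of both groups (0.05). No endosomal or surface receptor was called, and Tlr9 was the only one at an unadjusted p under 0.05.

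**Figure D3:**
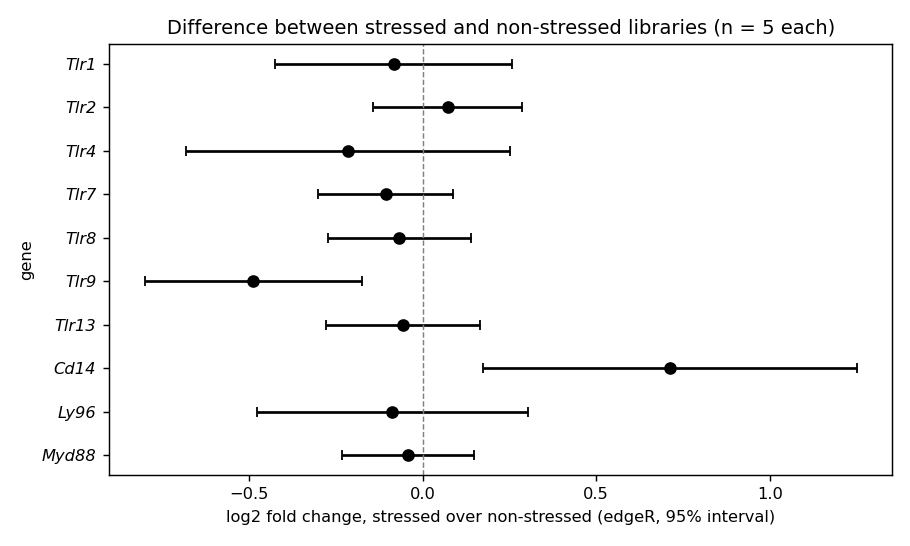
Log2 fold change of each of the 10 genes, stressed over non-stressed, from edgeR, with its 95% interval; the dashed line marks no difference. The intervals of Tlr9, -0.80 to -0.17, and Cd14, 0.17 to 1.25, exclude 0 before adjustment for 13334 tests, and those of the other 8 genes include it.

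Summed per kilobase, endosomal receptor transcripts exceeded surface receptor transcripts in every library. The surface sum of Tlr1, Tlr2 and Tlr4 was 69.96 ± 5.58 CPM per kilobase in stressed and 70.1 ± 7.81 in non-stressed libraries (SD, n = 5 each). The endosomal sum of Tlr7, Tlr8, Tlr9 and Tlr13 was 258 ± 24.8 CPM per kilobase in stressed and 286 ± 25.5 in non-stressed libraries. The endosomal sum was 3.07 to 4.36 times the surface sum in stressed and 3.63 to 4.43 times in non-stressed libraries, so the groups overlapped.

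On the log2 scale the ratio of surface to endosomal level was -1.88 ± 0.184 in stressed and -2.03 ± 0.108 in non-stressed libraries (SD, n = 5 each). The difference of 0.15 was smaller than the SD of the stressed group and was not tested, since it is a score over the chosen genes. With other lengths or all 12 receptors the difference was 0.12 to 0.16.

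Within the endosomal sum, the share of Tlr9 differed most between the group means. It was 14.4%, 12.1%, 9.58%, 15.1% and 17.5% in stressed replicates 1 to 5 and 15.6%, 18.8%, 16.0%, 20.02% and 17.8% in non-stressed replicates 1 to 5. Of the stressed libraries 4 lay below all non-stressed ones. Tlr7 made up 34.4 ± 2.16% in stressed and 33.6 ± 0.722% in non-stressed libraries, and Tlr13 38.3 ± 1.95% in stressed and 35.9 ± 3.10% in non-stressed libraries (SD, n = 5 each).

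**Figure D4:**
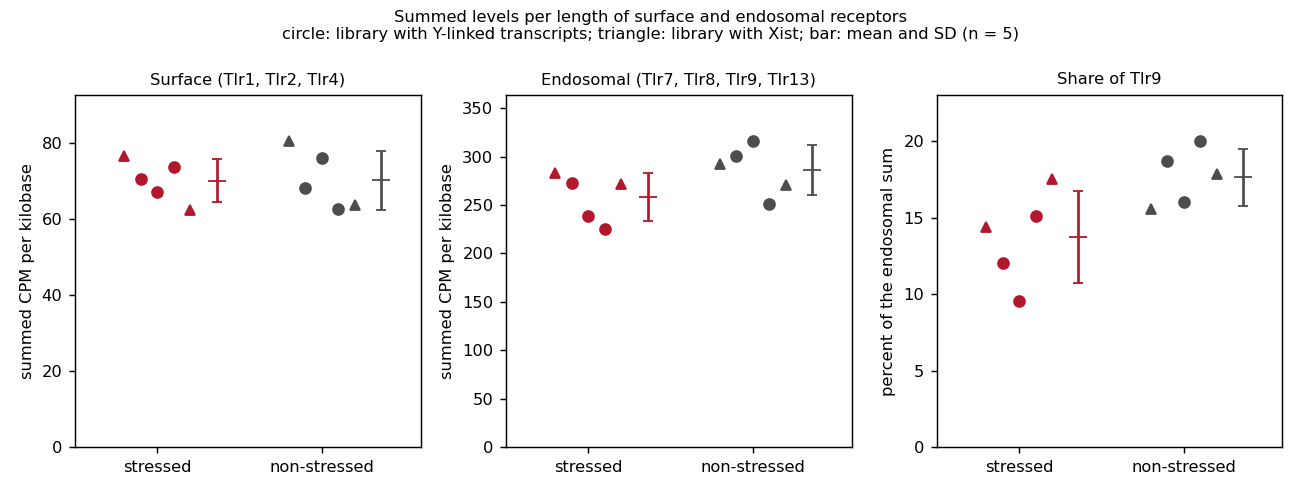
Summed CPM per kilobase of the surface receptors (left panel) and the endosomal receptors (middle panel), and the percent of the endosomal sum made up by Tlr9 (right panel), for 5 stressed (red) and 5 non-stressed (grey) libraries with the mean and SD; triangles are libraries with Xist and circles those with Y-linked transcripts. Surface sums overlap, endosomal sums are 258 ± 24.8 in stressed and 286 ± 25.5 in non-stressed libraries, and 4 stressed libraries have a lower Tlr9 share than any non-stressed one.

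Cd14, which passes lipopolysaccharide to TLR4 and MD-2 and also serves other receptors, was the co-receptor that differed most. It was measured at 72.3, 85.1, 67.1, 34.5 and 57.8 CPM in the stressed libraries and at 61.7, 21.7, 32.6, 41.9 and 36.2 CPM in the non-stressed libraries. Stressed replicates 1, 2 and 3 lay above all non-stressed libraries, stressed replicate 4 lay among the lower non-stressed values, and non-stressed replicate 1 lay among the stressed ones. Cd14 averaged 63.4 ± 18.9 CPM in stressed and 38.8 ± 14.8 CPM in non-stressed libraries (SD, n = 5 each), a fitted fold of 1.64.

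The log2 fold change of Cd14 was 0.71 (SE 0.25, 95% interval 0.17 to 1.25), with an edgeR p of 0.0129 before adjustment, rank 202, and 0.836 after it. Over 19 alternatives it was 0.56 to 0.93 with adjusted p from 0.347 to 0.999, and 0.89 without replicate 1 of each group. The gene (ENSMUSG00000051439) lies on chromosome 18 from 36725067 to 36726798, minus strand. Monocytes, macrophages and neutrophils express Cd14. Of 10 monocyte and macrophage markers 4 were above 0 in log2 fold change and 6 below, with a median of -0.07. The neutrophil marker sum was 1043 to 2228 CPM in stressed and 796 to 2411 CPM in non-stressed libraries. Of that list 7 of 10 markers were above 0 and 3 below, and no marker of either list was called. By median CPM, S100a8, S100a9, Ly6g, Cxcr2 and Retnlg were lower in the stressed libraries. Csf3r, Mmp8, Camp, Ngp and Ltf were higher, and Camp, Ngp and Ltf reached 0 CPM in both groups. Csf3r had the highest median of the list in both groups. The part of these cells in the Cd14 difference was not tested.

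Ly96, which encodes the MD-2 subunit that holds the lipid, was measured at 9.88, 11.8, 15.2, 15.5 and 12.4 CPM in the stressed libraries and at 11.6, 14.3, 14.9, 17.1 and 11.2 CPM in the non-stressed libraries. The groups overlapped, and the log2 fold change was -0.09 (SE 0.18, 95% interval -0.48 to 0.30, edgeR adjusted p = 0.987). Per kilobase, Cd14 was 3.65 to 7.23 times as high as Tlr4 in stressed and 1.96 to 4.004 times in non-stressed libraries. In 4 of the 5 stressed libraries this ratio was above that of every non-stressed library, a description of values for which no test was run.

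Myd88, the adaptor that the 7 receptors share, was measured at 196, 234, 271, 237 and 234 CPM in the stressed libraries and at 254, 277, 229, 224 and 226 CPM in the non-stressed libraries. Stressed replicate 1 was the lowest, and all other libraries of both groups lay between 224 and 277 CPM. Its log2 fold change was -0.04 (SE 0.09, 95% interval -0.23 to 0.15, edgeR adjusted p = 0.987), and with a coefficient of variation of 9.96% it was the least variable of the 10 genes. Per kilobase Myd88 stood at 76.0 to 105 CPM in stressed and 87.0 to 107 CPM in non-stressed libraries, in the range of Tlr7. Its exons overlap those of Acaa1a, as said above.

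Since Tlr7, Tlr8 and Tlr13 are X-linked and Tlr7 is known to escape X inactivation in some human immune cells, the 4 libraries with Xist were set beside the 6 with Y-linked transcripts. Tlr7 stood at 371 to 425 CPM in the libraries with Xist and at 303 to 428 CPM in those with Y-linked transcripts. The log2 difference, Xist over Y, was 0.11 for Tlr7 (SE 0.09), -0.07 for Tlr8 (SE 0.10) and 0.04 for Tlr13 (SE 0.11), each with an edgeR adjusted p of 0.999.

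Kdm6a, a histone demethylase gene known to escape X inactivation, was higher in the libraries with Xist by 0.75 on the log2 scale (SE 0.09, edgeR adjusted p = 0.00253). It ran from 77.1 to 99.5 CPM with Xist and from 41.9 to 58.6 CPM with Y-linked transcripts. Eif2s3x, the other escape gene examined, was higher with Xist by 0.65 (SE 0.15) but was not called. Its edgeR p was 0.000900 before adjustment and 0.750 after it. It ran from 17.6 to 23.3 CPM with Xist and from 10.9 to 17.1 CPM with Y-linked transcripts. Of the 10 genes 0 were called in this comparison, against 6 of 13334 genes (0.0450%). Ly96 alone was under 0.05 before adjustment, at 0.0314 in edgeR, as were 3.35% of all genes. Its log2 difference was -0.39 (SE 0.16, adjusted p = 0.999), with 9.88 to 12.4 CPM in the libraries with Xist and 11.8 to 17.1 CPM in those with Y-linked transcripts.

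Tlr9 was tested within both sets of libraries. Among the 6 with Y-linked transcripts, all 3 stressed libraries lay below all 3 non-stressed ones, as 5.71% of all genes did. The log2 fold change of Tlr9 there was -0.81, with an edgeR adjusted p of 0.664 (0.000248 before adjustment). Among the 4 with Xist it was -0.07. That the effects differ did not hold after adjustment: Y-linked minus Xist was -0.74 (SE 0.22), with an edgeR p of 0.00580 before adjustment, which 4.30% of all genes passed at 0.05, and 0.999997 after it.

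Cd14 was above 0 in both sets of libraries, at a log2 fold change of 0.95 with Y-linked transcripts and 0.43 with Xist (edgeR p of the difference 0.312 before adjustment). For Tlr4 the values were 0.16 with Y-linked transcripts and -0.70 with Xist, a set that holds non-stressed replicate 1 (edgeR p of the difference 0.0531 before adjustment). None of the 10 genes was called for such a difference, and 0 of 13334 genes were.

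The rest of the pathway showed no common direction. Of 76 further genes of receptor signalling, 70 could be tested, 34 were above 0 and 36 below 0 in log2 fold change, with a median of -0.01; without replicate 1 of both groups 29 were above and 41 below, with a median of -0.03. In edgeR 0 were called, in limma-voom 0, and in DESeq2 1, Lbp, where DESeq2 called 13 genes higher and 5 lower over all genes. At an unadjusted p under 0.05 in edgeR there were 9 of the 70 (12.9%), against 5.53% of all genes in either direction. Of these 9, 4 were higher and 5 lower, where 2.59% of all genes were higher and 2.95% lower. Without overlap between the groups were 2 of the 70 (2.86%), against 1.09% of all genes.

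Among the receptors outside the 10, Tlr11, which binds profilin of parasites in mice, averaged 4.65 ± 1.73 CPM in stressed and 8.44 ± 4.68 CPM in non-stressed libraries, with a log2 fold change of -0.86 (SE 0.47, edgeR adjusted p = 0.915). Tlr3 had a log2 fold change of 0.25 (SE 0.55, edgeR adjusted p = 0.987), Tlr5 of -0.02 (SE 0.22, adjusted p = 0.998) and Tlr12 of -0.12 (SE 1.02, adjusted p = 0.998). Of the 5, 2 were above 0 and 3 below, with a median of -0.02. That median ran from -0.24 without stressed replicate 1 to 0.14 without stressed replicate 4, and it was -0.36 without replicate 1 of both groups and -0.36 in limma-voom, with 0 of 5 above 0. All but Tlr6 were low, at most 20.4 CPM in any library.

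Of 15 genes that help receptors to bind or to reach the endosome, 6 were above 0 and 9 below, with a median of -0.03. Lbp, which encodes the plasma protein that carries lipopolysaccharide to CD14, averaged 12.5 ± 2.05 CPM in stressed and 6.57 ± 1.79 CPM in non-stressed libraries (SD, n = 5 each), with no overlap between the groups. The log2 fold change of Lbp was 0.94 (SE 0.22), with an adjusted p of 0.566 in edgeR and 0.0491 in DESeq2. Cd36, a scavenger receptor that presents diacylated lipids to TLR2, averaged 46.5 ± 21.1 CPM in stressed and 89.2 ± 50.7 CPM in non-stressed libraries, with a log2 fold change of -0.94 (SE 0.38, edgeR adjusted p = 0.874). Cd180, a relative of TLR4 that pairs with MD-1, had a log2 fold change of -0.20 (SE 0.12, edgeR adjusted p = 0.940).

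Of 20 adaptors and kinases, 8 were above 0 and 12 below, with a median of -0.01. Ticam1, which encodes TRIF, the adaptor of TLR3 and of endosomal TLR4, averaged 41.7 ± 4.88 CPM in stressed and 52.3 ± 5.61 CPM in non-stressed libraries, and 4 of 5 stressed libraries lay below all non-stressed ones. Its log2 fold change was -0.32 (SE 0.11, edgeR adjusted p = 0.829). Ikbke, a kinase upstream of interferon regulatory factors, had a log2 fold change of 0.28 (SE 0.13, edgeR adjusted p = 0.893) and Traf6, the ubiquitin ligase next after the MyD88 complex, one of -0.18 (SE 0.09, edgeR adjusted p = 0.898).

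Of 10 transcription factors, 5 were above and 5 below 0, with a median of 0.03. Fos, a subunit of AP-1, averaged 1062 ± 430.3 CPM in stressed and 629.9 ± 279 CPM in non-stressed libraries (SD, n = 5 each), with a log2 fold change of 0.76 (SE 0.28, edgeR adjusted p = 0.874). Nfkb1, the precursor of an NF-kappaB subunit, averaged 447 ± 21.1 CPM in stressed and 502 ± 29.7 CPM in non-stressed libraries, with a log2 fold change of -0.16 (SE 0.06, edgeR adjusted p = 0.874). Atf3, a factor that restrains receptor responses, had a log2 fold change of 0.35 (SE 0.18, edgeR adjusted p = 0.895).

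Of 14 listed inhibitors 13 could be tested, with 8 above 0, 5 below and a median of 0.02; without stressed replicate 1 there were 4 above and 9 below, with a median of -0.10, and without replicate 1 of both groups 4 above and 9 below, with a median of -0.03. Dok3, a docking protein of myeloid cells that restrains receptor signalling, averaged 397 ± 51.7 CPM in stressed and 329 ± 24.0 CPM in non-stressed libraries (log2 fold change 0.27, SE 0.09, edgeR adjusted p = 0.829). Peli1, a ubiquitin ligase that acts on IRAK kinases, averaged 120 ± 7.58 CPM in stressed and 139 ± 7.07 CPM in non-stressed libraries, with all 5 stressed libraries below all non-stressed ones (log2 fold change -0.21, SE 0.07, edgeR adjusted p = 0.836). Its place among the inhibitors is that of the list, and whether Peli1 restrains receptor signals in these cells was not tested. Socs1, which ends cytokine and receptor signals, had a log2 fold change of -0.47 (SE 0.26, edgeR adjusted p = 0.917).

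Of 12 listed target genes of the receptors only 7 could be tested, 5 above and 2 below 0, with a median of 0.15. The median was -0.10 without non-stressed replicate 5, -0.0032 without stressed replicate 1, 0.52 without non-stressed replicate 1 and 0.44 without both. Tnf, the inflammatory cytokine, averaged 12.4 ± 3.84 CPM in stressed and 18.9 ± 4.86 CPM in non-stressed libraries, with a log2 fold change of -0.61 (SE 0.24, edgeR adjusted p = 0.874). The chemokine genes Cxcl2 and Ccl3 had log2 fold changes of 1.27 (SE 0.73, edgeR adjusted p = 0.940) and 0.61 (SE 0.43, edgeR adjusted p = 0.950). Cxcl2 was low, at 0.533 to 11.1 CPM in stressed and 0.340 to 4.28 CPM in non-stressed libraries. Its log2 fold change was 0.53 without stressed replicate 5 and 1.89 without non-stressed replicate 4. That of Ccl3 was 0.34 without stressed replicate 4 and 1.10 without non-stressed replicate 4. Among targets that could not be tested, Il12b and Ifnb1 had 0 reads in all libraries.

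**Figure D5:**
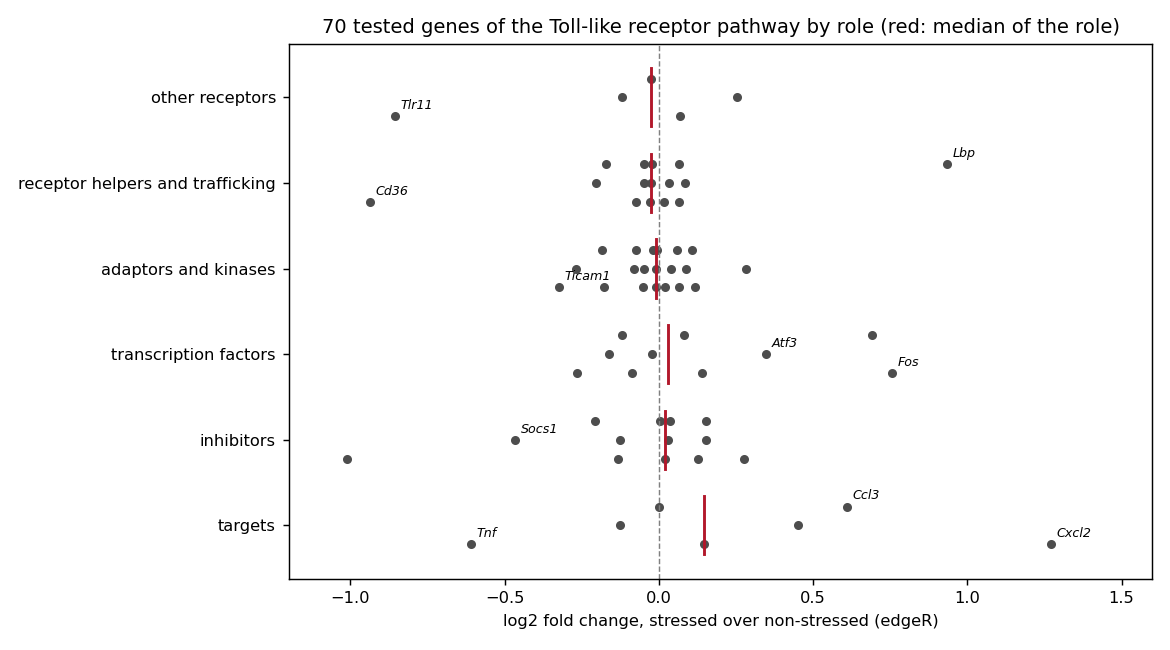
Log2 fold change, stressed over non-stressed, of 70 tested pathway genes (1 point each) by role, with the median of each role in red and names for those described that lie beyond 0.3 on either side. Role medians lie between -0.03 and 0.15, with points on both sides of 0 in each role.

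For each of the 7 receptors the gene with the most similar profile over the 10 libraries was sought among 10168 genes, by the smallest root mean square difference of mean-centred log2 CPM. These were Yif1b for Tlr1 (0.12), Mink1 for Tlr2 (0.09), Phospho1 for Tlr4 (0.16), Cpne3 for Tlr7 (0.05), N4bp1 for Tlr8 (0.05), Pml for Tlr9 (0.16) and Api5 for Tlr13 (0.08). Pml had a log2 fold change of -0.27 between stressed and non-stressed libraries. The receptors whose profiles were matched least closely, Tlr4 and Tlr9, were also those that varied most between libraries. This is partly built into the measure, which is not scaled to the spread of a gene.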

How the data were processed

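RNA-seq of 10 mouse libraries was used, grouped by the sample titles. Per the labels' protocols, PicoPure was the RNA kit and TruSeq Stranded the library kit. The submitters' processing notes name featureCounts, STAR, Trimmomatic and the build mm10. Not given in the sources used here are versions, the annotation, and how strand and multiply mapped reads were treated. The authors deposited raw counts per gene for 48526 Ensembl identifiers, of which 48144 matched a symbol in GENCODE M21. Replicates of each group were distinct libraries (chi-square per degree of freedom 22.3 to 69.8).

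From these counts, CPM was computed with plain library totals and per kilobase of merged exons. The test was that of edgeR 4.0.16 under R 4.3.3 (filterByExpr with a minimum count of 10, TMM, quasi-likelihood F test, Benjamini-Hochberg over all 13334 genes at 0.05), checked on simulated counts. Alternatives were DESeq2 1.42.0, limma-voom 3.58.1 with quality weights, upper-quartile and RLE factors, no filter, CPM above 1 in 5 libraries, a replicate block, a Ddx3y covariate, leaving out each library, and leaving out the 2 libraries farthest on the principal components. Replicate numbers were not taken to pair the samples in the main fit, since the labels name no pairs. Same-numbered libraries deviated together for 4 of 5 numbers, so a pairing remains possible, and the replicate block gives the values under it. The genes, lists and markers were chosen with earlier results of these data known. The rule named all 10 genes, the other receptors, and the 3 pathway genes of smallest p per role. Kdm6a, Eif2s3x, Siglech, Cd74, Acaa1a and Pml's fold change were added after values were seen. Sequences are from GRCm38 and from RefSeq promoters (GRCm38.p6).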

Additional observations from a re-analysis of the deposited data

Results flagged for a closer look

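Among 32 sets of 5 libraries checked for a value far from the others, 2 stood out, and chance marks about 1 set in 20. Tlr4 in non-stressed replicate 1 was at 71.4 CPM, with the next non-stressed library at 35.5 CPM, a gap of 0.876 of the range of the group. Tlr5 in the same library was at 18.3 CPM, with the next non-stressed library at 13.2 CPM, a gap of 0.727 of the range. For both genes the same library, which also lay farthest on the principal components, was the highest of its group.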

How the results depend on the processing

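No alternative called any of the 10 genes, and the difference of the surface to endosomal ratio stayed between 0.08 and 0.21 when each library was left out in turn. Log2 fold changes of Tlr2, Tlr7, Tlr8, Tlr9 and Cd14 kept their sign in all 19 alternatives. Over all genes, 1 was higher and 0 were lower; the counts were 13 higher and 5 lower in DESeq2, 2 higher in limma-voom, 7 higher and 3 lower without the filter, and 1 to 2 higher when each library was left out. The pathway count of 0 became 1 in DESeq2 (Lbp, adjusted p = 0.0491). With the replicate block 3 genes were higher and 1 lower, and 949 genes were at an unadjusted edgeR p under 0.05, against 738 in the main fit. Deviations of same-numbered libraries correlated at -0.02 to 0.17 over 1000 genes, over 0.1 for 4 of 5 numbers. Of the 5 stressed libraries 2 correlated best with their own number. Same-numbered libraries of both groups were alike in carrying Xist or Y-linked transcripts, and replicate 1 of each group stood apart on the principal components. The labels name no pairs, so the main fit is unpaired, and whether same numbers mark pairs is not known. Under the block Tlr9 was at -0.52 (adjusted p = 0.315) and Tlr3 turned to -0.024. Without replicate 1 of each group, Tlr4 turned to 0.048, Myd88 to 0.029 and Tlr3 to -0.36; in limma-voom Myd88 turned to 0.0063, Tlr3 to -0.36 and Tlr6 to -0.055; with the Ddx3y covariate Tlr12 turned to 0.17. With each library left out in turn, log2 fold changes ran from -0.17 to 0.032 for Tlr1, -0.31 to 0.075 for Tlr4, -0.14 to 0.0020 for Tlr13, -0.16 to 0.0009 for Ly96, -0.10 to 0.012 for Myd88, -0.14 to 0.54 for Tlr3, -0.24 to 0.11 for Tlr5, -0.045 to 0.14 for Tlr6 and -0.51 to 0.31 for Tlr12. The cause of these turns was not tested. Depth limits Tlr3, Tlr11 and Tlr12, which had 1491, 1876 and 356 reads over all libraries.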
